A study of Mus musculus with 8 samples.

Results

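The Polycomb group genes described here are Ezh1, Ezh2, Eed, Suz12 and Jarid2 of Polycomb repressive complex 2 (PRC2) and Ring1, Rnf2, Bmi1, Cbx2 and Phc1 of Polycomb repressive complex 1 (PRC1). Their members were chosen by name: every probe set (a group of short DNA probes that reports 1 mRNA 3′ end) that the platform annotation assigns to 1 of these 10 genes was taken. That gave 27 probe sets among the 45037 that are not array controls. A probe set was tested where no fewer than 4 of the 8 arrays had it brighter than their own median signal. Of the 27, 20 met this condition, from 9 of the 10 genes, among 23336 in the whole table. Ring1 was the gene without a tested probe set.

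Messenger RNA bound to polysomes, which are mRNAs carrying several ribosomes and so under translation, was measured in 4 batches of mouse oocytes arrested at metaphase II (MII) and in 4 batches of one-cell embryos treated with alpha-amanitin, an inhibitor of RNA polymerase II. Each batch pooled 160 to 500 oocytes or embryos, and its RNA was amplified by in vitro transcription in 2 rounds. No strain, age, treatment dose or time is given in the labels used here, and all one-cell embryos carry the inhibitor, so embryo stage and treatment cannot be told apart. Signals are in arbitrary units relative to each array's total, and fewer copies of an mRNA and a smaller share of it on polysomes cannot be told apart.

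Polycomb proteins keep genes silent through chromatin. PRC2 methylates lysine 27 of histone H3 through its catalytic subunit Ezh2 or Ezh1, while PRC1 attaches ubiquitin to histone H2A through Ring1 or Rnf2. Mouse oocytes deposit the PRC2 mark on the maternal genome, where it is carried into the embryo and keeps a set of maternal alleles silent, and oocytes without Ring1 and Rnf2 give embryos that fail early. The fully grown oocyte and the early one-cell embryo make little or no new mRNA, so the supply of these proteins at this stage rests on translation of stored mRNAs.

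The arrays differed in quality. Array medians lay between 26.9 and 37.9 on 7 arrays and at 71.8 on one-cell array 1, whose 18 hybridization controls averaged 14879 (geometric mean of signal). Those of the MII arrays averaged 905 to 1364, and those of one-cell arrays 2, 3 and 4 averaged 2528, 857 and 3718. The 75th percentile of signal was 81.5 to 96.8 on MII arrays and 108.8 to 171.7 on one-cell arrays. Array measures therefore also differed between the groups. One-cell array 1 gave the lowest of the 4 one-cell signals in 13 of the 20 tested Polycomb probe sets, and in 31.4% of all tested probe sets. It gave the highest in 2 of the 20, and in 46.5% of all tested probe sets. All 15 genes of the wider Polycomb list that passed did so again in the same direction without it. Values without it are given for the member probe sets that it moved most. In the wider list they are given for Rbbp4 and Rbbp7 only, and other genes there moved as well. The 18S rRNA 3′ control, a sign of ribosomal RNA in the sample, also moved with the groups: it read 1583 to 2971 on MII arrays and 10688 to 66754 on one-cell arrays. The 18S 5′ control overlapped, with 6037 to 11707 on MII arrays and 9094 to 20095 on one-cell arrays. So did the middle (M) 18S control, with 10092 to 18646 and 13892 to 82981.5. The part of ribosomal RNA in the Polycomb results was not tested. All 10 oocyte marker genes were tested, and their summed signal was 80513 to 111871 on MII arrays and 52698 to 92693 on one-cell arrays. Of 9 cumulus and granulosa cell markers on the array, 5 (Has2, Ptgs2, Foxl2, Inha and Fshr) passed the filter, and the summed signal of the 9 was 425 to 507 on MII arrays and 322 to 1119 on one-cell arrays. The 6 sperm markers summed to 91.4 to 137.0 on MII arrays and 145 to 432 on one-cell arrays, with Tnp1, Tnp2 and Smcp above the median of no array. Of the 2 that were tested, Prm2, a sperm protamine, rose from 30.3 ± 12.5 to 152 ± 69.3 (SD, n = 4 each), a log2 change of 1.96 ± 0.39 (limma adjusted p = 0.00103), or 1.71 ± 0.35 without one-cell array 1. Prm2 exceeded the array median on 2 of the 4 MII arrays and on all 4 one-cell arrays. Prm2 therefore met the filter through its one-cell values, and its fold is poorly set. Odf1 did not pass (0.15 ± 0.48). Prm1 was not tested, with overlapping signals of 22.6 ± 15.7 on MII arrays and 40.2 ± 34.5 on one-cell arrays (SD, n = 4 each). The part of these other cell types in the Polycomb results was not tested.

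Between the MII oocyte and the one-cell embryo, polysomal mRNA of Phc1 rose, while none of the tested probe sets of the 5 PRC2 genes passed the test. Phc1 was 2.83-fold higher in one-cell embryos, on the scale of log2(signal + 10). One of 2 tested probe sets of Rnf2 fell, by 2.53-fold, and the other did not pass. One of 2 probe sets of Bmi1 fell, and the 2 probe sets of Cbx2 moved in opposite directions. The test was limma's moderated test of one-cell embryo minus MII oocyte, with Benjamini-Hochberg adjustment over all 23336 probe sets and a threshold of 0.05. Of the 20 Polycomb probe sets, 2 were higher and 3 lower, which is 25.0%, against 32.1% of all tested probe sets. By direction, 19.3% of all tested probe sets were higher and 12.8% lower. Counted by the brightest tested probe set of each gene, 1 of 9 genes was higher (Phc1) and 2 were lower (Rnf2 and Cbx2), against 20.1% higher and 14.7% lower among 12359 genes. The Polycomb share of calls was therefore close to, or under, that of the table as a whole. The median log2 change was -0.41 over the 20 probe sets and 0.17 over all tested probe sets. Both medians depend on the scaling. Over all tested probe sets the median was -0.12 after quantile normalization, which equalises the distributions of the arrays. In that setting 29.9% of all tested probe sets passed (14.6% higher and 15.4% lower). Without one-cell array 1 that median was 0.033, and 34.5% passed (20.5% higher and 14% lower). The Polycomb median is given for signals as deposited only, and its members moved too. With quantile normalization Eed 1448653_at went from -0.65 to -0.14 and Bmi1 1417493_at from -0.77 to -0.27. In the other direction, Suz12 1420020_at went from -0.45 to -0.90. Of the Polycomb probe sets, 2 were higher and 3 lower in either of these settings, but the lower ones were not the same. Rnf2 1424873_at alone was lower throughout. It was joined by Suz12 1420020_at and Jarid2 1450710_at after quantile normalization, and by Bmi1 1448733_at and Suz12 1420021_s_at without one-cell array 1. The higher ones were Phc1 and Cbx2 1422059_at each time.

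**Figure D1:**
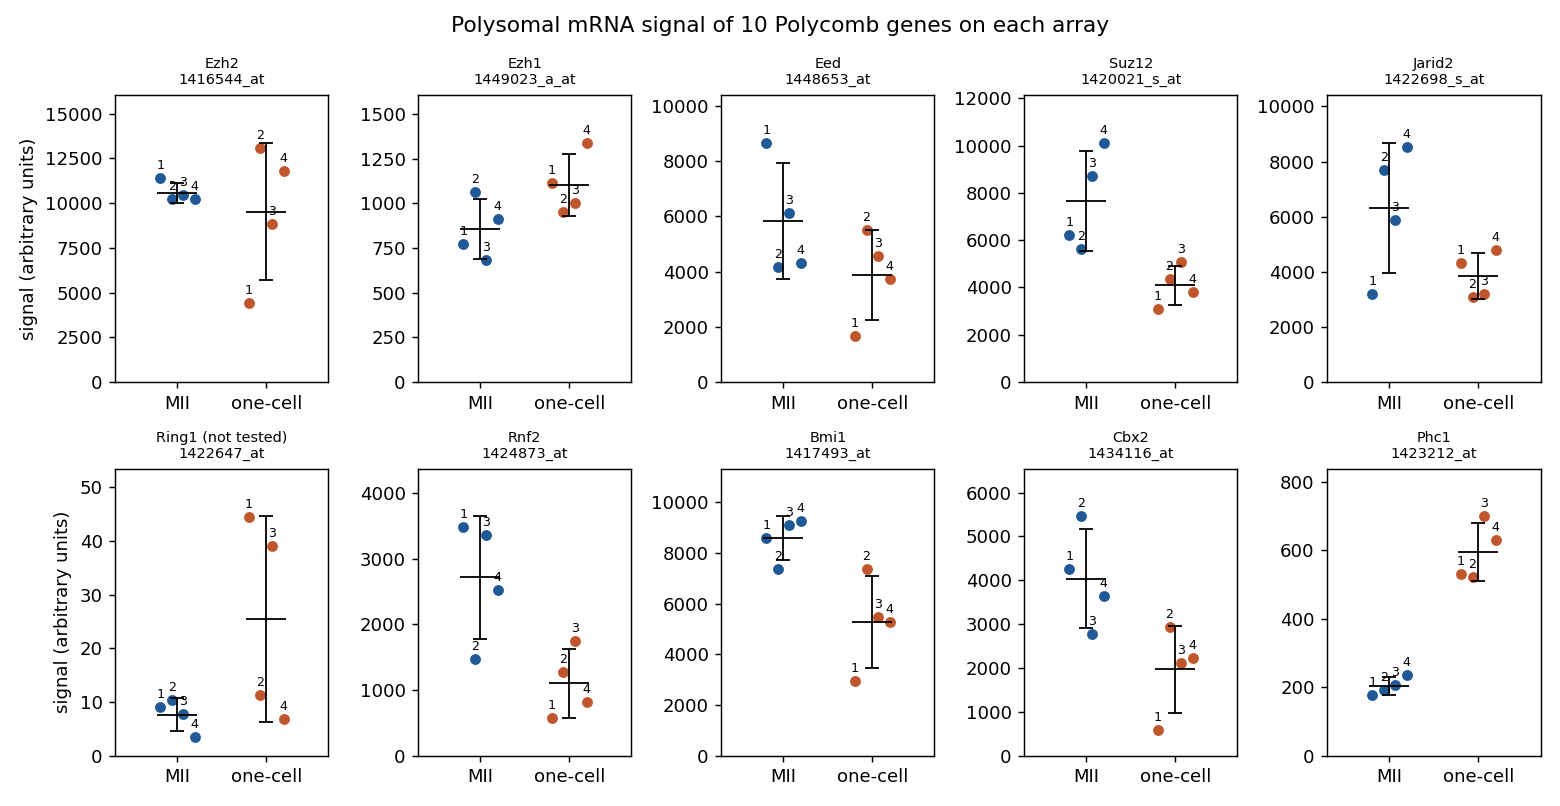
Signal (arbitrary units, linear axis from 0, a separate scale in each panel) of 10 Polycomb genes on the 4 MII oocyte arrays (blue) and the 4 one-cell embryo arrays (orange), by the brightest tested probe set of each gene, or the 1 probe set of Ring1, which was not tested. Numbers are replicate numbers, the horizontal dash is the mean and the bars are the SD. The groups separate without overlap in the panels of Phc1 (higher in one-cell embryos) and Suz12 (lower). Of all tested probe sets, 19.3% separate as higher and 13.3% as lower. Array 1 is the lowest one-cell array in 6 of the panels, those of Ezh2, Eed, Suz12, Rnf2, Bmi1 and Cbx2.

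PRC2 carries its methyltransferase in Ezh2 or its relative Ezh1. The single probe set of Ezh2 (1416544_at) gave signals of 11397, 10206, 10454 and 10233 on the MII arrays and 4395, 13076, 8843 and 11801 on the one-cell arrays. The MII arrays lay close together, and 3 of the one-cell arrays lay around them while array 1 lay far below. Group means were 10572 ± 561 and 9529 ± 3855 (SD, n = 4 each), a log2 change of -0.26 ± 0.40 (limma SE, adjusted p = 0.684). Without one-cell array 1 the change was 0.071 ± 0.24 (limma adjusted p = 0.862), and after quantile normalization 0.10 ± 0.25, so its sign is not set.

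Ezh1 has 4 probe sets, 2 of them tested. Its brightest (1449023_a_at) read 771, 1062, 683 and 915 on the MII arrays and 1112, 949.8, 1003 and 1340.4 on the one-cell arrays, with overlapping groups. The log2 change was 0.36 ± 0.27 (limma adjusted p = 0.354). The other tested one (1418290_a_at) had means of 235 ± 58.3 and 371 ± 247 (SD, n = 4 each) and a change of 0.43 ± 0.40, which became 0.051 ± 0.34 without one-cell array 1. The remaining 2, 1429629_at and 1429630_at, exceeded the median of no array, with signals of 1.90 to 28.2 and 1.6 to 35.4. Set against Ezh1 within each array, Ezh2 changed by -0.63 ± 0.41 (SE) on the log2 scale, a difference that did not pass a two-sided exact permutation test over the arrays (p = 0.143, adjusted p = 0.238 over 5 pairs of subunits).

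Eed, the subunit that binds the methylated histone and stimulates the enzyme, and Suz12, the scaffold of the PRC2 core, are needed for its activity. The tested probe set of Eed (1448653_at) read 8677, 4159.7, 6131 and 4326 on the MII arrays and 1672, 5505, 4553 and 3719 on the one-cell arrays. The groups overlapped, with MII array 1 highest and one-cell array 1 lowest. Its log2 change was -0.65 ± 0.41 (limma adjusted p = 0.251), and -0.29 ± 0.29 without one-cell array 1. A second Eed probe set (1453830_at) was above the array median on 1 array only, one-cell array 1, and was not tested.

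Suz12 has 6 probe sets, all tested, and none passed. The brightest (1420021_s_at) gave 6239, 5609.6, 8700.4 and 10128 on the MII arrays and 3106, 4338, 5089 and 3803 on the one-cell arrays. Every MII array was above every one-cell array, a separation found as a lower signal in 13.3% of all tested probe sets. Means were 7669 ± 2113 and 4084 ± 839 (SD, n = 4 each), a log2 change of -0.89 ± 0.34 that missed the threshold (limma adjusted p = 0.0592) and passed it without one-cell array 1 (-0.77 ± 0.27, adjusted p = 0.0403). After quantile normalization the change was -0.39 ± 0.25 (adjusted p = 0.284).

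The probe set 1452364_at of Suz12 read 3311, 1817, 3461 and 2894 on the MII arrays and 1318, 1932, 1574 and 1725 on the one-cell arrays, and changed by -0.78 ± 0.31 (limma adjusted p = 0.0643). It passed without MII array 2, its lowest MII array (-0.98 ± 0.32, adjusted p = 0.0302), but not without any other array (limma adjusted p from 0.0663 to 0.185). After quantile normalization its change was -0.35 ± 0.25 (adjusted p = 0.341), and it passed in 3 of 19 alternative settings. For 1427253_s_at the change was -0.39 ± 0.32, and for 1420020_at -0.45 ± 0.28. The remaining 2, 1420022_s_at (0.065 ± 0.30) and 1449661_at (0.16 ± 0.27), had signals between 155 and 426 on every array. With the 6 averaged, Suz12 changed by -0.38 ± 0.22 (limma adjusted p = 0.235). After quantile normalization 1420020_at passed as lower (-0.90 ± 0.29, adjusted p = 0.0357). The change of Suz12 minus that of Eed was -0.24 ± 0.43 (SE; two-sided exact permutation p = 0.60, adjusted p = 0.60).

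Jarid2 is an accessory subunit that helps PRC2 to bind its targets. Its brightest probe set (1422698_s_at) read 3181, 7698, 5889 and 8519 on the MII arrays and 4311, 3082, 3195 and 4796 on the one-cell arrays, with MII array 1 down among the one-cell arrays. The log2 change was -0.65 ± 0.37 (limma adjusted p = 0.211). For 1422697_s_at, signals were 1808, 1904, 2016 and 1724 on the MII arrays and 719.9, 2111, 2186 and 2049.8 on the one-cell arrays. Apart from one-cell array 1 the values kept to a narrow range of 1724 to 2186, and the change was -0.20 ± 0.35, or 0.18 ± 0.23 without that array. The dimmest, 1450710_at, changed by -0.44 ± 0.29 from 268 ± 54.6 to 196 ± 45.3 (SD, n = 4 each), and passed as lower after quantile normalization (-0.88 ± 0.29, limma adjusted p = 0.0375). Relative to Ezh2, Jarid2 changed by -0.38 ± 0.56 (SE; two-sided exact permutation p = 0.486, adjusted p = 0.60). Across the 13 tested PRC2 probe sets, 0 passed limma's adjusted threshold, against 32.1% of all tested probe sets. An unadjusted p under 0.05 was found for 2, both of Suz12, against 40.5% of all tested probe sets. Their fitted changes were negative in 9 and positive in 4. After quantile normalization 2 of the 13 passed as lower, against 15.4% of all tested probe sets, and without one-cell array 1, 1 did, against 14%.

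**Figure D2:**
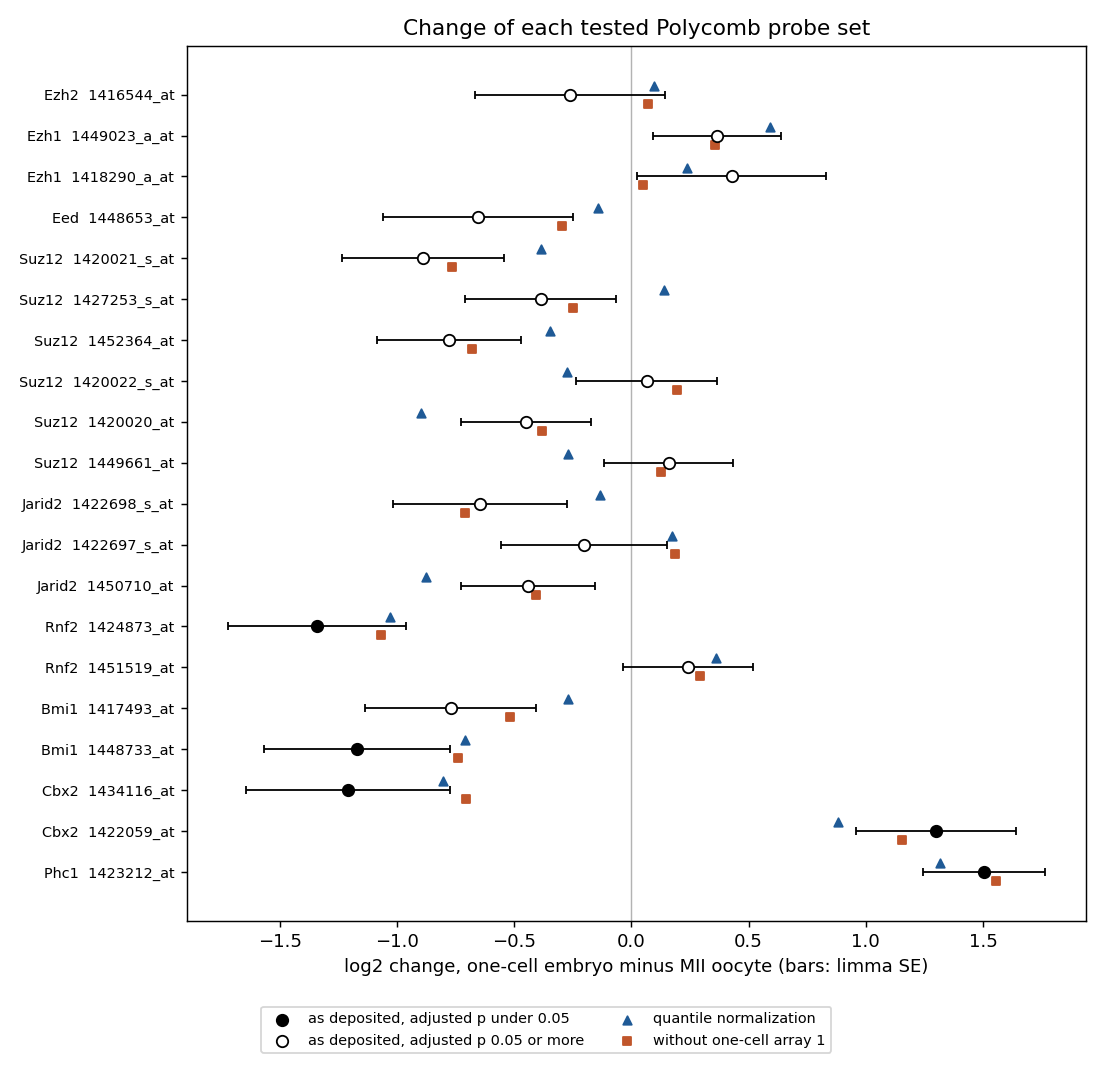
Log2 change, one-cell embryo minus MII oocyte, of the 20 tested Polycomb probe sets with signals as deposited (circles with limma SE, filled where the adjusted p is under 0.05), after quantile normalization (blue triangles) and without one-cell array 1 (orange squares). Phc1 and Cbx2 1422059_at lie right of 0 in all 3 settings, and Rnf2 1424873_at, Bmi1 1448733_at and Cbx2 1434116_at lie left of it, while all points of the PRC2 genes lie within 1 unit of 0.

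In PRC1 the ubiquitin ligase is Ring1 or Rnf2 (also called Ring1B). Ring1 has 1 probe set (1422647_at), with signals of 9.0, 10.4, 7.70 and 3.4 on the MII arrays and 44.5, 11.3, 39.1 and 6.80 on the one-cell arrays. Of the 8 values, that of one-cell array 3 alone was above its array's median, so no change is given. Rnf2 fell by its brightest probe set (1424873_at), which read 3491, 1475, 3367 and 2531 on the MII arrays and 568, 1269, 1751 and 821 on the one-cell arrays. The groups overlapped through MII array 2 and one-cell array 3. Means were 2716 ± 931 and 1102 ± 521 (SD, n = 4 each), a log2 change of -1.34 ± 0.38 (limma adjusted p = 0.012). The fall held after quantile normalization (-1.03 ± 0.35, adjusted p = 0.0438) and without one-cell array 1 (-1.07 ± 0.34, adjusted p = 0.0223). It was lost with both changes together (-0.84 ± 0.33, adjusted p = 0.0619) and when hybridization control signal entered the fit (-0.63 ± 0.34, adjusted p = 0.194). Centring each array on its median also lost it (-1.66 ± 0.58, limma adjusted p = 0.0522). These are 3 of 19 alternative settings.

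A second tested probe set of Rnf2 (1451519_at) did not follow. It read 867, 554, 861 and 536 on the MII arrays and 731, 863, 918 and 759 on the one-cell arrays, with overlapping groups and a log2 change of 0.24 ± 0.28 (limma adjusted p = 0.568). Within arrays, its change exceeded that of 1424873_at by 1.58 ± 0.33 (SE), without overlap of the groups (two-sided exact permutation p = 0.0286, the lowest value possible with 4 arrays a group, and adjusted p = 0.105 over 11 pairs of probe sets). Averaged over both, Rnf2 changed by -0.55 ± 0.29 (limma adjusted p = 0.185), so the fall of Rnf2 is that of 1 probe set. The other 3 (1448041_at, 1448042_s_at and 1448043_x_at) read 2.70 to 34.4 and were not tested, with 1 value, on MII array 1, above an array median.

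Bmi1 pairs with Rnf2 or Ring1 in the ligase and stimulates it. Its brightest probe set (1417493_at) read 8584, 7352, 9084 and 9277 on the MII arrays and 2939.8, 7357, 5472 and 5276 on the one-cell arrays. One-cell array 2 reached the lowest MII array and the other one-cell arrays lay below all MII arrays. The log2 change was -0.77 ± 0.36 (limma adjusted p = 0.122). Leaving out one-cell array 1 made it -0.52 ± 0.25. The second probe set (1448733_at) read 4077, 4893, 4507 and 5433 on the MII arrays and 845, 3568, 2406 and 2601 on the one-cell arrays. Every one-cell array was below every MII array, as in 13.3% of all tested probe sets. The signal of 1448733_at fell from 4728 ± 577 to 2355 ± 1128 (SD, n = 4 each), a log2 change of -1.17 ± 0.40 (limma adjusted p = 0.0324), and -0.74 ± 0.25 without one-cell array 1 (adjusted p = 0.0321). That call was lost after quantile normalization (-0.71 ± 0.32, adjusted p = 0.117) and without any 1 of the 4 MII arrays (adjusted p from 0.0532 to 0.0829). It was also lost with each array centred on its median (limma adjusted p = 0.0823) and with hybridization control signal in the fit (adjusted p = 0.317). In total 9 of 19 alternative settings lost it. The mean of both changed by -0.97 ± 0.36 (limma adjusted p = 0.0594). Bmi1 and Rnf2, by their brightest probe sets, differed in change by 0.57 ± 0.32 (SE; two-sided exact permutation p = 0.143, adjusted p = 0.238).

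Cbx2 is a chromodomain subunit of canonical PRC1 that binds methylated histone H3. Its brightest probe set (1434116_at) fell: it read 4261, 5457, 2771 and 3648 on the MII arrays and 587, 2934, 2119 and 2226 on the one-cell arrays. One-cell array 2 was above the lowest MII array, and one-cell array 1 was far below the rest. The log2 change was -1.21 ± 0.43 (limma adjusted p = 0.043), and without one-cell array 1 it was -0.70 ± 0.28, no longer past the threshold (adjusted p = 0.062). The call was also lost when MII array 1, 2 or 4 was left out, or one-cell array 3 or 4 (limma adjusted p between 0.0508 and 0.116) and after quantile normalization (-0.81 ± 0.40, adjusted p = 0.156). In total 13 of 19 alternative settings lost it.

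The other Cbx2 probe set (1422059_at) rose. Its signals were 29.8, 74.2, 46.3 and 59.1 on the MII arrays and 190.4, 110.1, 118.7 and 144 on the one-cell arrays, so all one-cell arrays lay above all MII arrays, which held as a higher signal for 19.3% of all tested probe sets. Each of the 8 values was above its own array's median, that of MII array 1 by little (median 26.9). No MII value was above its array's 75th percentile, so the fold is poorly set. Means were 52.4 ± 18.9 and 141 ± 36.1 (SD, n = 4 each), a log2 change of 1.30 ± 0.34 (limma adjusted p = 0.00736). Without one-cell array 1 it was 1.15 ± 0.31 (adjusted p = 0.00847), and after quantile normalization 0.88 ± 0.28 (adjusted p = 0.0306). The changes of the 2 Cbx2 probe sets differed by 2.51 ± 0.72 (SE) within arrays (two-sided exact permutation p = 0.0286, adjusted p = 0.105 over 11 pairs), and their mean changed by 0.046 ± 0.26 (limma adjusted p = 0.924). No direction is therefore set for Cbx2 as a gene.

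**Figure D3:**
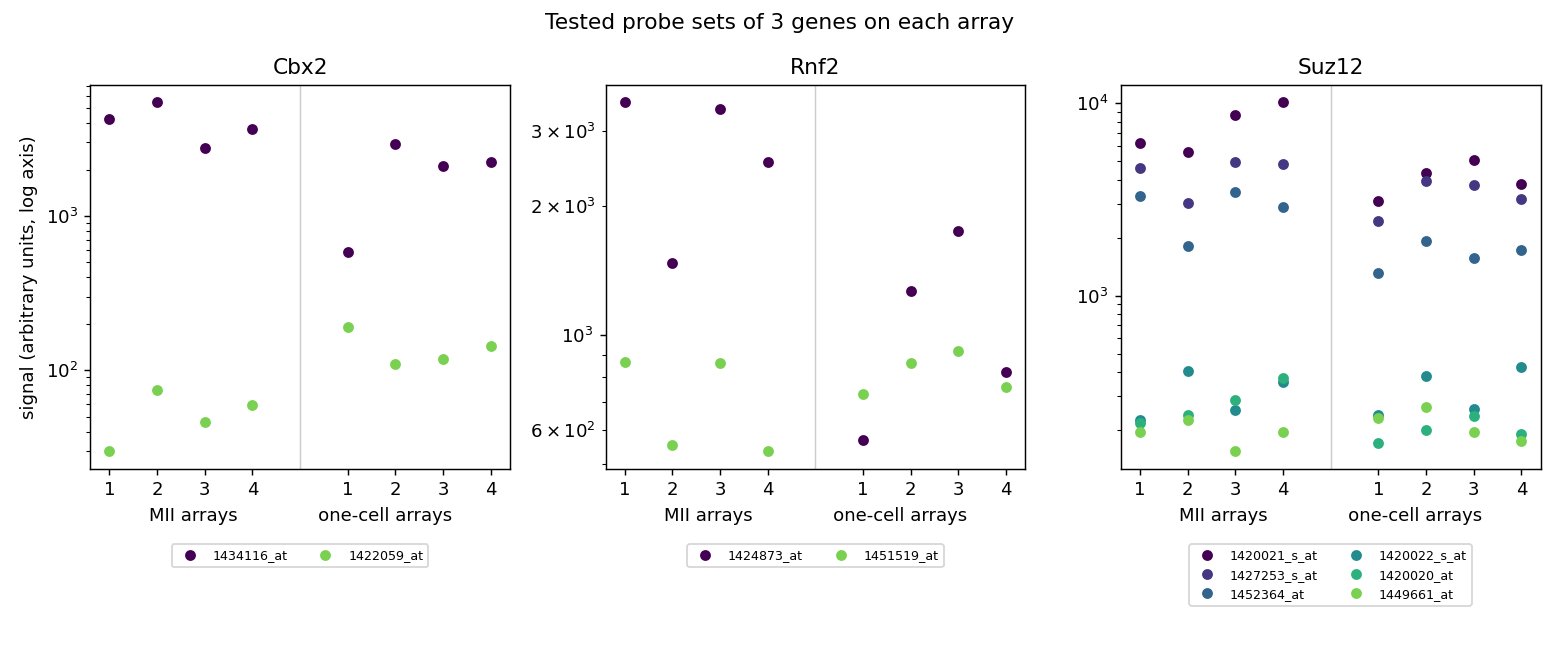
Signal (arbitrary units, log axis) of the tested probe sets of Cbx2 (2), Rnf2 (2) and Suz12 (6) on each of the 4 MII and 4 one-cell arrays, with 1 colour for each probe set. In Cbx2 the brighter probe set is lower and the dimmer one higher on the one-cell arrays, in Rnf2 the brighter one is lower while the other overlaps, and in Suz12 the groups separate for the brightest probe set and overlap for the other 5. Of all tested probe sets, 19.3% separate as higher and 13.3% as lower.

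Phc1 is a polyhomeotic subunit through which PRC1 complexes join into larger assemblies. Its probe set (1423212_at) read 177, 193, 206 and 237 on the MII arrays and 529.9, 522, 699 and 631 on the one-cell arrays. Each group kept to a narrow range and the lowest one-cell array lay far above the highest MII array. Groups separated with a higher one-cell signal in 19.3% of all tested probe sets. Means were 203 ± 25.3 and 595 ± 85.0 (SD, n = 4 each), a log2 change of 1.50 ± 0.26 (limma adjusted p = 0.000324). The rise passed under all 19 alternative settings that could be run for it, with changes from 1.19 to 1.62 and adjusted p from 4.95e-05 to 0.0338. Relative to Cbx2 1434116_at within arrays, Phc1 changed by 2.71 ± 0.55 (SE), without overlap (two-sided exact permutation p = 0.0286, adjusted p = 0.143 over 5 pairs). That p is the lowest possible here, so 1 pair alone could not pass after adjustment. The other Cbx2 probe set, 1422059_at, rose by 1.30, so the difference is that of 1434116_at. The 3 genes whose log2 signal followed Phc1 most closely over the 8 arrays, among 12258 named probe sets bright enough to be considered, were Slc4a1ap (Pearson r = 0.999), Rnf40, a ubiquitin ligase for histone H2B (0.998), and Zwilch, a kinetochore protein (0.997). For Rnf2 1424873_at they were the small GTPase Rap1b (0.994), the RNA helicase Dhx15 (0.991) and the microtubule-severing enzyme Spast (0.9902). These correlations are a description over 8 arrays that share 2 groups.

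The other genes of the Polycomb system were taken from a list of 55, of which 46 had a tested probe set, each given by its brightest. Of the 46, 6 rose and 9 fell, or 32.6%, against 34.8% of all genes, and their median log2 change was 0.023 against 0.16. Among 6 tested accessory genes of PRC2, 3 fell and 0 rose, where 14.7% of all genes were lower. Aebp2, a DNA-binding subunit, changed by -1.58 ± 0.31 from 2258 ± 568 to 757 ± 232 (SD, n = 4 each; limma adjusted p = 0.00101). Of its 5 tested probe sets 2 passed as lower, and averaged over the 5 it changed by -0.81 ± 0.27 (limma adjusted p = 0.034). The histone chaperone Rbbp4 changed by -1.41 ± 0.43 (adjusted p = 0.0182; -0.95 ± 0.27 without one-cell array 1) and Phf1, a Tudor-domain subunit, by -0.76 ± 0.27 (adjusted p = 0.0391). Averaged over its 4 probe sets Rbbp4 did not pass (-0.50, adjusted p = 0.13), and after quantile normalization neither Rbbp4 nor Phf1 did (adjusted p = 0.0578 and 0.258). Mtf2 (0.26 ± 0.28) and Phf19 (-0.069 ± 0.32) did not pass. Nor did Rbbp7 (0.91 ± 0.57), for which one-cell array 1 read 87542 and the other one-cell arrays 9605 to 28976. Its change was 0.36 ± 0.35 without that array and -0.33 with the hybridization controls in the fit.

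Of 20 tested PRC1 genes beyond the members, 3 rose and 4 fell, or 35%, near the 34.8% of all genes. The polyhomeotic gene Phc3 had the largest fitted change, opposite in sign to that of Phc1. Its mean signal was 219 ± 65.7 on the MII arrays and 32.2 ± 25.2 on the one-cell arrays (SD, n = 4 each), a log2 change of -2.64 ± 0.44 (limma adjusted p = 0.000239). All 4 MII values but only 2 of the 4 one-cell values were above their array's median. Phc3 therefore met the filter through its MII values, and its fold and its rank are poorly set. The third polyhomeotic gene, Phc2, did not pass (-0.21 ± 0.42). Scml2, a sex comb on midleg protein (-2.04 ± 0.41), also fell, by 1 of its 2 tested probe sets. Averaged over both, Scml2 changed by -1.08 ± 0.29 (limma adjusted p = 0.0108). The related gene Scmh1 (1.18 ± 0.27) and Auts2, a subunit of variant PRC1 (1.34 ± 0.29), rose. The other 3 past the test, named after their values were seen, belong to variant PRC1. Kdm2b, which brings that complex to CpG islands, rose by 1.20 ± 0.37. Its partner Pcgf1 changed by -1.14 ± 0.34, a call lost after quantile normalization (limma adjusted p = 0.0744), and Yaf2 by -0.99 ± 0.26.

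Among 9 genes for enzymes and partners that remove the Polycomb marks, 2 rose and 1 fell, or 33.3% against the same 34.8%. The H3 lysine 27 demethylase gene Kdm6a fell from 3966 ± 286 to 2013 ± 526 (SD, n = 4 each; -1.01 ± 0.30, limma adjusted p = 0.0165), a call lost after quantile normalization (-0.51 ± 0.24, adjusted p = 0.131). The H2A deubiquitinase genes Bap1 (1.31 ± 0.33, adjusted p = 0.0062) and Usp16 (1.36 ± 0.38, adjusted p = 0.0109) rose. Usp16 lost its call after quantile normalization (adjusted p = 0.0711) and when its 2 probe sets were averaged (0.69, adjusted p = 0.118). Of 11 Trithorax group genes, which act against Polycomb silencing, 1 rose and 1 fell, or 18.2% against 34.8%. The first was Men1 (2.05 ± 0.36), whose MII signal of 34.3 ± 10.2 (SD, n = 4) is near the array medians, so that its fold is poorly set. The second was Dpy30, a subunit of the H3 lysine 4 methyltransferases (-1.41 ± 0.32, from 8137 ± 869.9 to 3077 ± 537). The methyltransferase genes Kmt2a, Kmt2b, Kmt2c, Kmt2d, Setd1a and Setd1b had changes between -0.33 and 0.41 by their brightest probe sets, none past the test. Other probe sets did pass, with 3 of 4 tested for Kmt2c lower and 1 of 2 for Setd1b higher. Averaged over probe sets, Kmt2c passed as lower (-0.90 ± 0.29, limma adjusted p = 0.0308) and Setd1b as higher (0.71 ± 0.25, adjusted p = 0.0457). Asxl1, a partner of Bap1, also passed as higher when averaged (1.33 ± 0.25, adjusted p = 0.000932). Without one-cell array 1, 11 of the 46 genes rose in place of 6, with Pcgf3, Bcorl1, Asxl1, Usp21 and Ash2l added.

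**Figure D4:**
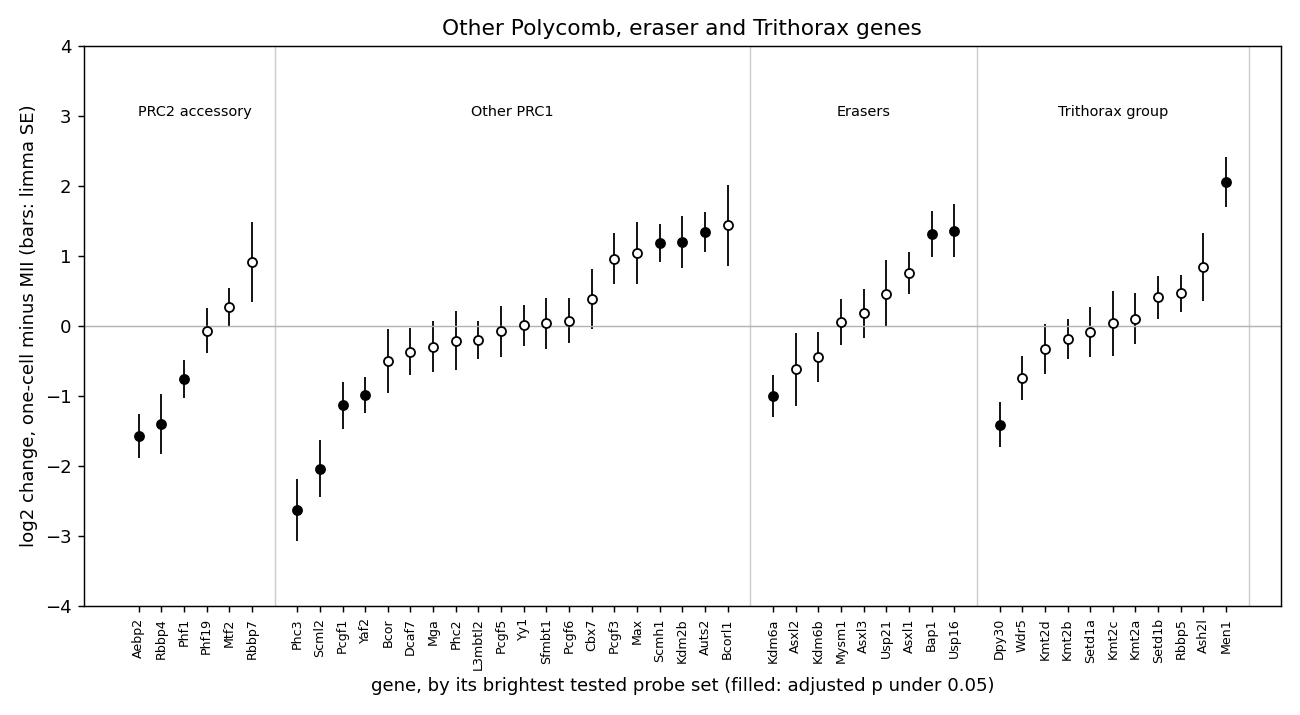
Log2 change, one-cell embryo minus MII oocyte, with limma SE, of the 46 tested genes of the wider Polycomb and Trithorax list, by group and ordered by value, filled where the adjusted p is under 0.05. The PRC2 accessory genes that passed are all below 0, while the other 3 groups hold filled points on both sides of 0, from Phc3 at -2.64 to Men1 at 2.05.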

How the data were processed

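The deposited values are linear intensities, 1 for each probe set, on 8 one-colour arrays of polysomal RNA, amplified in 2 rounds and labelled with biotin, per the labels. The sources used here name no array software or scaling method. The mean after trimming 2% at each end is 150.0 on every array, so scaling to a common mean preceded deposit. It removes any change in total polysomal mRNA, and amplification favours 3′ ends. No detection calls and no coordinates were used. Of 45101 probe sets, 64 are controls. GEO's platform annotation gives 1 gene symbol to 34945, several to 932 and none to 9160. All 10 members matched RefSeq symbols by gene ID.

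Signals were used as log2(signal + 10), and the 4 one-cell embryo and 4 MII oocyte arrays were compared with limma 3.58.1 in R 4.3.3 (lmFit, eBayes with variance trend, Benjamini-Hochberg over the 23336 probe sets above the array median on at least 4 arrays). A fold is 2 to the power of that log2 change and understates the change of dim probe sets. Within-array differences between 5 pairs of members, and between probe sets of 1 gene (a test added after values were seen), used two-sided exact permutation tests over arrays (SciPy 1.17.1). The sixth pair, with Ring1, had no tested probe set. The number of arrays limits the precision. The labels call the replicates independent. In simulated data for this comparison with 23336 probe sets, 3.43% of 2-fold, 50.0% of 4-fold and 91.9% of 16-fold changes passed. Only 198 to 204 changes of each size were simulated, summed over the runs, where 32.1% of the real probe sets passed. The adjustment was therefore stricter in the simulation, and its shares for small changes can be too low for these data.

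Members were named in full. From the wider list the rule named up to 4 genes per group with the smallest adjusted p, and the 3 probe sets most like the leading member in each direction were named. Yaf2, Kdm2b, Pcgf1 and the list genes that did not pass were named after their values were seen. The members and lists were chosen with earlier results of these data known. Alternatives covered scaling, offset (1 or 50), filter, variance model, array weights, replicate block, control covariate, each array left out and averaging over probe sets.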

Additional observations from a re-analysis of the deposited data

Results flagged for a closer look

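In 40 sets of 4 values (20 tested probe sets in each group), 2 had 1 array far from the other 3, where chance gives about 1 in 20. On one-cell array 1, Jarid2 1422697_s_at read 720 where its group otherwise held 2050 to 2186, a gap of 0.942 of the group's range on the log2 scale. On MII array 2, Suz12 1427253_s_at read 3046 against 4596 to 4985, a gap of 0.835 of the range. One-cell array 1 is also the array with the brightest hybridization controls, and its part in the Jarid2 value was not tested.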

How the results depend on the processing

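Direction and call of Phc1 1423212_at were the same in all 19 alternative settings, and those of Cbx2 1422059_at in 17 of 18 (the exception is the control covariate, 0.97, adjusted p = 0.0516). The counts of lower Polycomb calls were less steady. With all arrays and signals as deposited 2 probe sets were higher and 3 lower, 1 gene higher and 2 lower, and 6 genes of the wider list higher and 9 lower. After quantile normalization 1 gene was lower, and 5 of the wider list. With median centring 0 probe sets and 0 genes were lower and 1 of the wider list higher (2937 higher and 2841 lower probe sets in the whole table, against 4511 and 2982). Without the filter 1 probe set and 1 gene were lower, and with the 75th percentile filter 1 probe set was higher and 5 lower. Without the variance trend 1 gene was lower, and with array weights 11 of the wider list were higher. With the control covariate 1 probe set was higher, 0 probe sets and 0 genes lower, and 10 of the wider list higher. Quantile normalization without one-cell array 1, a setting chosen after seeing the data, gave 0 genes lower, with 11 higher and 5 lower in the wider list. Averaged over probe sets 0 genes were lower, and at an adjusted p under 0.01, 0 probe sets. The causes were not tested. Leaving out 1 array at a time gave 2 to 2 probe sets higher and 1 to 3 lower, 1 to 1 gene higher and 1 to 2 lower, and 5 to 11 higher and 7 to 9 lower in the wider list.

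Changes with the opposite sign, none past the test in either setting, were as follows. After quantile normalization they were 0.097 for Ezh2, 0.14 for Suz12 1427253_s_at, -0.27 for 1420022_s_at and -0.27 for 1449661_at, and 0.18 for Jarid2 1422697_s_at. With centring they were -0.25 and -0.16 for the last 2 of Suz12 and -0.074 for Rnf2 1451519_at. With array weights they were 0.028 for Ezh2 and 0.096 for Jarid2 1422697_s_at. With the control covariate they were 0.16 for Ezh2, -0.32 for Ezh1 1418290_a_at, 0.0055 for Eed and 0.42 for Jarid2 1422697_s_at. With quantile normalization and no one-cell array 1 they were 0.29, -0.29, 0.083 and 0.49 for these 4, and 0.14, -0.096 and -0.26 for the 3 Suz12 probe sets. Without 1 array, Ezh2 ranged from -0.45 to 0.071, Jarid2 1422697_s_at from -0.35 to 0.18 and Suz12 1420022_s_at from -0.073 to 0.20. The change of Suz12 minus Eed was 0.27 and that of Bmi1 minus Rnf2 -0.42 when probe sets were averaged. Without 1 array the ranges were -0.54 to 0.032 for Suz12 minus Eed, 0.43 to 0.79 for Bmi1 minus Rnf2, -0.88 to -0.29 for Ezh2 minus Ezh1, -0.78 to -0.096 for Jarid2 minus Ezh2 and 2.26 to 3.03 for Phc1 minus Cbx2.

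The sample numbers in the titles were tried as a replicate block, which kept 2 Polycomb probe sets higher and 3 lower. Arrays with the same number did not deviate together (r from -0.16 to 0.14), so the numbers were not taken as pairs.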
